A study of Mus musculus with 12 samples.

Results

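Mouse embryonic fibroblasts that lacked Sos2 alone were set against wild-type fibroblasts. The comparison rests on the 3 arrays labelled Sos2KO and the 3 labelled WT, which are 6 of the 12 arrays of the series and were chosen by sample title, and it covers all 19505 genes with a symbol in the platform annotation. The other 6 arrays, 3 of Sos1/2DKO and 3 of Sos1KO, served for the shared estimate of spread and for the comparisons that show where Sos2KO differs. All 4 genotypes were grown as low-passage primary cultures from C57/BL6 E13.5 embryos, and all of them, WT included, received 4-hydroxytamoxifen for 12 days before RNA was taken from subconfluent cells. The Sos alleles and any Cre transgene are not described in the labels. Arrays of 1 genotype are labelled as biological replicates, with no embryo or litter named. The p-values reflect the spread between arrays of the same genotype, pooled over the 4 genotypes. That spread holds differences between cultures together with array differences in background and labelling.

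SOS1 and SOS2 are closely related guanine nucleotide exchange factors. The adaptor GRB2 brings them to activated receptor tyrosine kinases at the membrane, where they load RAS with GTP and so start the RAF-MEK-ERK cascade. Mice without Sos2 are viable, whereas loss of Sos1 is lethal to the embryo, and SOS1 is regarded as the dominant exchange factor in fibroblasts. Comparing Sos2KO with WT asks what the loss of the second factor does while SOS1 is present.

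The deleted gene was lower in the cultures named for it. Sos2 had log2 levels of 7.56, 7.73 and 7.93 in Sos2KO replicates 1 to 3, against 8.65, 8.74 and 9.23 in WT. Every Sos2KO array lay below every WT array, a 2.20-fold difference (log2 difference -1.14, SE 0.18), but the limma adjusted p over all genes was 0.278. With Sos2KO replicate 3 left out, Sos2 fell by 1.23 on the log2 scale (limma adjusted p = 0.0277). Signal remained in Sos2KO, and the position of the probes within Sos2 was not analysed here, so the level need not reflect the deleted exons. Sos1 had levels of 8.77, 8.78 and 9.38 in Sos2KO and 8.91, 9.02 and 9.32 in WT. These ranges overlap (log2 difference -0.11, SE 0.22, limma adjusted p = 0.854), and the small difference changed sign under several other settings.

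Across all genes 0 of 19505 passed an adjusted p of 0.05 in limma (0.0%), and 0 passed the wider cutoff of 0.25 that the authors' deposited overview states. At an unadjusted p under 0.05 there were 2711 genes (13.9%), 1038 higher in Sos2KO (5.32%) and 1673 lower (8.58%), where 975 would fall by chance in the absence of any effect. In a fit over all probe sets, 4.81% of named genes were higher at that p and 8.03% lower. Of the intron controls 4.04% were higher and 11.1% lower, and of the exon controls 6.27% and 17.1%. What the excess over 975 reflects was not tested. The 3 Sos2KO arrays lay above all WT arrays for 1848 genes (9.47%) and below them for 2096 (10.7%). Differences were mostly small: 20 genes were at least 2-fold higher and 177 at least 2-fold lower, the median log2 difference over all genes was 0.018, and 47.4% of genes had a difference below 0.

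The Sos2KO arrays differed from the WT arrays in more than genotype. Control probe sets for background at high GC content had log2 levels of 8.44, 8.58 and 7.56 in Sos2KO replicates 1 to 3, against 7.38, 7.54 and 7.30 in WT. Dap, a bacterial poly-A RNA added during labelling, stood at 8.16, 8.29 and 6.01 in Sos2KO and at 3.97, 3.89 and 3.98 in WT, and the hybridization control BioB at 10.00, 9.99 and 8.99 in Sos2KO and 8.88, 8.67 and 8.57 in WT. In all 3 measures Sos2KO replicates 1 and 2 stood high and replicate 3 lay closer to WT. A term for high-GC background in the fit therefore leans on replicate 3. Values given with that term are not a check separate from the values of replicate 3. Medians of the intron control probe sets were 4.17, 4.05 and 4.18 in Sos2KO and 4.37, 4.20 and 4.57 in WT, and 62.2% of 5222 intron controls had a difference below 0. The spike-in is present on all Sos2KO arrays and on no WT array, so labelling and genotype cannot be told apart within this comparison. Y-linked genes were expressed on 2 of 3 Sos2KO arrays and 1 of 3 WT arrays.

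**Figure D1:**
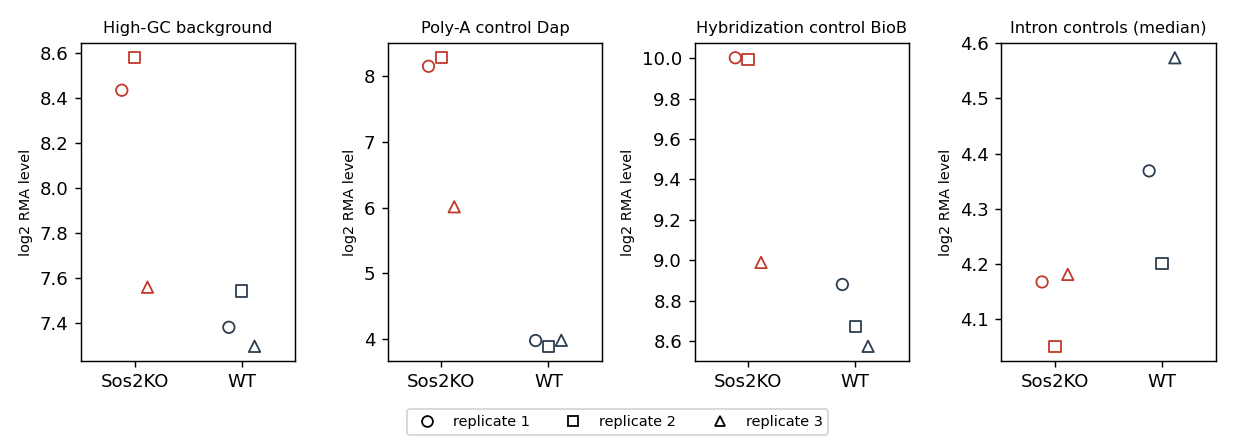
Log2 RMA levels of control probe sets on the Sos2KO (left, red) and WT (right, dark) arrays, with a marker shape for each replicate and no bars. High-GC background, Dap and BioB are high in Sos2KO replicates 1 and 2 (8.44 and 8.58 for high-GC background) and nearer to the WT arrays in replicate 3 (7.56). The axes do not start at 0.

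Among the genes higher in Sos2KO, Pdpn had the smallest p. It encodes podoplanin, a membrane mucin that marks many fibroblasts and lymphatic endothelium. Its log2 levels were 9.34, 9.12 and 8.57 in Sos2KO, against 7.83, 7.19 and 7.29 in WT. The groups did not overlap, and the 2.97-fold difference (log2 1.57, SE 0.28) had a limma adjusted p of 0.278. With Sos2KO replicate 3 left out, Pdpn rose by 1.79 on the log2 scale (limma adjusted p = 0.0277), and with the high-GC background as a term in the fit the difference was 1.45.

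Other genes with the smallest p on the higher side covered unrelated functions. Rin3, an exchange factor for the endosomal GTPase RAB5, stood at 8.95, 9.03 and 8.87 in Sos2KO and at 8.31, 8.05 and 8.26 in WT, and Rab1b, a GTPase of transport between endoplasmic reticulum and Golgi, at 7.26, 7.42 and 7.10 in Sos2KO and 6.33, 6.58 and 6.35 in WT. For both, the 3 Sos2KO arrays were tight and clear of WT (log2 differences 0.74 and 0.84). Lgals3, which encodes the galactoside-binding lectin galectin-3, had levels of 9.35, 9.30 and 8.79 in Sos2KO and 8.66, 8.33 and 8.11 in WT, and was again separate in all arrays (0.78, SE 0.19). Arsg, a lysosomal sulfatase (0.80), Rnf225 (0.91), the ubiquitin ligase subunit Fbxo44 (1.02), the cytokine Il17f (0.70), the sodium-proton exchanger Slc9b2 (0.70) and Prr16 (0.65) complete this set together with Oas1a (0.89) and Oas1c (0.71) of the interferon-induced oligoadenylate synthetases. Arsg, Oas1a and Il17f were near background in WT, so their fold differences are uncertain. Each of these 11 genes had a limma adjusted p of 0.278.

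On the lower side the genes with the smallest p were Mettl9, Sos2 and Zbed4. Mettl9, a protein histidine methyltransferase, had log2 levels of 8.73, 8.68 and 9.05 in Sos2KO, against 9.61, 9.98 and 9.95 in WT. No arrays overlapped, with a 2.03-fold difference (log2 -1.02, SE 0.16, limma adjusted p = 0.278). Zbed4, a zinc finger protein, stood at 5.54, 5.19 and 5.83 in Sos2KO and 6.72, 6.70 and 6.51 in WT (-1.12, SE 0.19). Fmr1, whose product FMRP is an RNA-binding repressor of translation, stood at 8.42, 8.47 and 8.78 in Sos2KO and 9.28, 10.01 and 9.76 in WT (-1.13, SE 0.20). In both genes the highest Sos2KO array was below the lowest WT array.

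Further genes on that side were Atp1b3, a beta subunit of the sodium pump (-1.24), the serpin Serpina3i (-1.06), Tmem263 (-1.06), Tm2d1 (-0.98), the G protein gamma subunit Gng10 (-0.85), the histone H3 lysine 4 demethylase Kdm5b (-0.84), the p53 ubiquitin ligase Rchy1 (-0.83) and the mitochondrial tryptophanyl-tRNA synthetase Wars2 (-0.82). Wars2 and Gng10 were as low in replicate 3 as in the other Sos2KO arrays: Wars2 had levels of 6.32, 6.55 and 6.36 in Sos2KO and 7.36, 7.22 and 7.11 in WT, and Gng10 8.60, 8.69 and 8.61 in Sos2KO and 9.40, 9.31 and 9.73 in WT. Atp1b3 spread more, with 9.49, 8.73 and 9.98 in Sos2KO against 10.60, 10.53 and 10.80 in WT. With the high-GC term, the difference of Wars2 was -0.79 and that of Atp1b3 was -0.63.

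**Figure D2:**
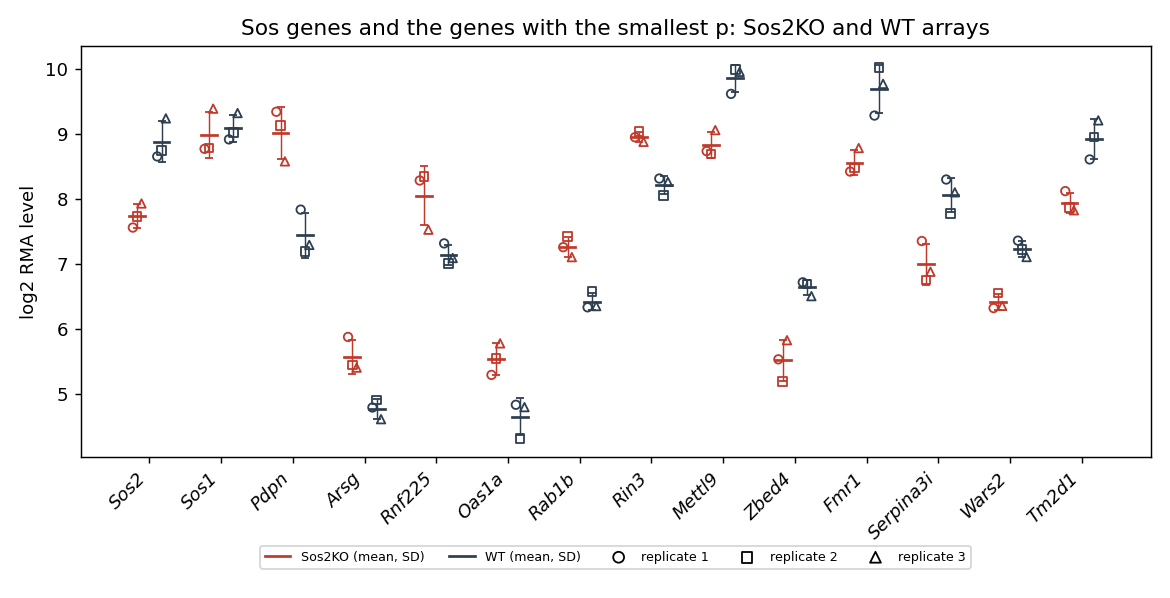
Log2 RMA levels of Sos2, Sos1 and the 6 higher and 6 lower genes of smallest p whose groups do not overlap, in Sos2KO (left of each pair, red) and WT (right, dark). Points are arrays, bars mark the mean and the SD of 3 arrays. Sos1 overlaps between the groups, Pdpn is higher in Sos2KO (means 9.01 and 7.44), and Sos2 is lower (7.74 and 8.88).

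The authors' deposited table for Sos2KO lists 59 probe sets at their cutoff, with adjusted p from 0.178 to 0.245 in that table. Of these, 40 are intron controls, 2 exon controls and 7 poly-A controls, all 7 of the last kind higher in Sos2KO. Named genes account for 9 entries of the authors' deposited table: Pdpn and 2900060B14Rik, a clone-named gene given here after its values were seen, were higher (log2 fold changes 1.57 and 1.37), and 7 genes were lower. The 6 of smallest p among the lower ones in the authors' deposited table are Snapc1, a subunit of the complex that drives small nuclear RNA transcription (-1.13), Pgap1, which remodels GPI anchors (-1.55), the mitochondrial ribosomal protein Mrpl20 (-0.97), Zbed4, Mettl9 and Sos2. The log2 levels of Mrpl20 on these arrays were 9.33, 9.56 and 9.49 in Sos2KO and 10.45, 10.62 and 10.23 in WT, so the groups were well apart. Snapc1 stood at 6.04, 5.81 and 5.82 in Sos2KO and 6.86, 7.14 and 7.08 in WT. Both were as low in replicate 3 as in replicates 1 and 2. The fit over all 4 genotypes gave each of them an adjusted p of 0.278 in limma, over a narrower list of features than the authors tested. With Sos2KO and WT fitted alone, the lowest limma adjusted p over the same genes was 0.275. What accounts for the lower adjusted p in the authors' table was not tested.

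Sos2KO replicate 3 correlated more with the WT arrays than with the other Sos2KO arrays. Its correlation over genes was 0.991, 0.984 and 0.988 with WT replicates 1 to 3, and 0.979 and 0.973 with Sos2KO replicates 1 and 2. Sos2KO replicates 1 and 2 correlated at 0.980 with each other, so replicate 1 was about as close to replicate 3 as to replicate 2. With WT replicates 1 to 3, Sos2KO replicate 1 correlated at 0.981, 0.973 and 0.971. The WT arrays correlated with each other at 0.986 to 0.990. When Sos2KO replicate 3 was left out, the calls changed most. When it was left out, 720 genes were called (3.69%), 210 higher (1.08%) and 510 lower (2.61%), while leaving out any other Sos2KO or WT array gave 0. On replicate 3 these genes lay close to WT, and the median difference from the WT mean was 0.12 for the 210 higher genes, against 0.83 on the other 2 Sos2KO arrays, and -0.22 for the 510 lower genes, against -0.97. Replicate 3 was above the WT mean for 163 of the 210 (77.6%), beside 49.5% of all genes, and below it for 426 of the 510 (83.5%), beside 50.5% of all genes. In 418 of the 720 genes all 3 Sos2KO arrays were clear of all WT arrays, beside 9.47% of all genes on the higher side and 10.7% on the lower. These counts are descriptions, because the 720 genes were chosen against the same WT arrays and on replicates 1 and 2, which also carry the high background. With the high-GC term and all arrays, 538 of the 720 kept their sign, with a median size of 0.14 in the original direction, against 0.92 without replicate 3. The part of background in these differences was not tested further.

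**Figure D3:**
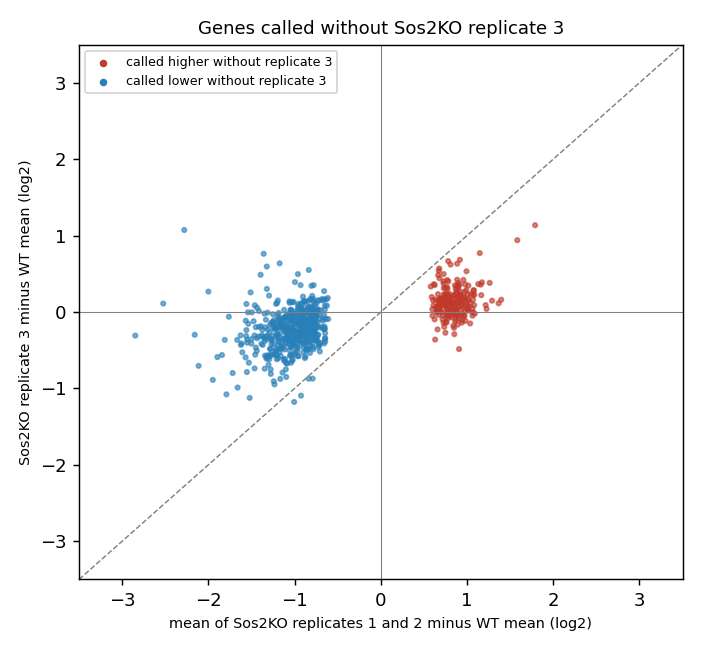
Each point is 1 of the 720 genes called without Sos2KO replicate 3, with the mean of Sos2KO replicates 1 and 2 minus the WT mean on the horizontal axis and Sos2KO replicate 3 minus the WT mean on the vertical axis (both log2). Red marks the 210 genes called higher and blue the 510 called lower, and the dashed line marks equal values. Most points lie near 0 on the vertical axis, with medians of 0.12 and -0.22.

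Of the genes called without replicate 3 that were also separate on all arrays, the 8 with the largest change in each direction are described here, with clone-named and predicted genes left out. The clone-named 2900060B14Rik, which would rank among the higher ones at 1.58, is left out for that reason. Epha7, an ephrin receptor, had log2 levels of 7.06, 6.69 and 8.28 in Sos2KO, against 8.36, 9.26 and 9.32 in WT, and fell by 2.11 without replicate 3 (limma adjusted p = 0.0495). Nectin3, an adhesion receptor, had 8.02, 6.81 and 8.72 in Sos2KO and 9.32, 9.31 and 9.30 in WT, and Pgap1 had 5.22, 5.24 and 5.94 in Sos2KO and 6.85, 7.01 and 7.21 in WT. In each of the 3 genes replicate 3 was the Sos2KO array nearest to WT. G2e3, a ubiquitin ligase (-1.95), the tetraspanin Tspan6 (-1.72), Dcbld2 (-1.66), the centromere protein Cenpi (-1.66) and Rbl1, which encodes the pocket protein p107 (-1.62), also fell without replicate 3. On the higher side Ankrd33b (1.40), the nucleoside transporter Slc28a3 (1.26), Rnf225 (1.17), Cfap100 (1.17), Pdlim2, a PDZ and LIM domain protein (1.16), Fbxo44 (1.15) and Atg16l2 (1.09) rose without replicate 3, together with Pdpn. With the high-GC term and all arrays, the 8 higher genes lay between -0.02 (Cfap100) and 1.45 (Pdpn), and the 8 lower genes between -0.85 (Tspan6) and -0.05 (Dcbld2).

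The RAS pathway itself was described through lists of its parts, for none of which a member passed over all genes. Of the 8 RAS exchange factors, 5 had a difference below 0 and the median was -0.08, or 0.06 with the high-GC term. Apart from Sos2, the member with the smallest p was Rasgrf1, a calcium-regulated RAS exchange factor best known from neurons, with log2 levels of 8.75, 9.08 and 8.26 in Sos2KO and 8.14, 7.91 and 7.82 in WT. Its groups did not overlap (0.74, SE 0.27, limma adjusted p = 0.304), and the difference was 0.26 with the high-GC term. Rasgrp2 stood at 0.22.

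Of 10 RAS family GTPases, 8 were below 0 with a median of -0.33, and 4 were lower and 1 higher at an unadjusted p under 0.05, beside 8.58% and 5.32% of all genes. The median was -0.10 with the high-GC term and -0.10 with a term for the spike-in. Rras, an integrin-activating relative of RAS, had log2 levels of 10.69, 11.50 and 10.88 in Sos2KO and 10.39, 10.59 and 10.39 in WT, so its arrays were all higher (0.57, limma adjusted p = 0.310). Rap2a (-0.88), Rala (-0.49) and Rap1b (-0.44), of the RAP and RAL branches, were lower on all arrays. With the high-GC term Rras was at 0.23, Rap2a at -0.21, Rala at -0.73 and Rap1b at -0.09. Of 8 RAS GTPase-activating proteins, which switch RAS off, 6 were below 0 (median -0.30, and 0.01 with the high-GC term), with Rasal2 at -0.92, Rasa2 at -0.73 and neurofibromin, Nf1, at -0.67, or 0.07 with the high-GC term. All 3 overlapped between the groups.

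Among 13 receptor adaptors the median was -0.18, and 0.04 with the high-GC term. Grb2, which carries SOS to receptors, had log2 levels of 9.21, 9.29 and 9.80 in Sos2KO and 9.92, 10.19 and 9.89 in WT. The arrays were apart by a narrow gap (-0.57, SE 0.18, limma adjusted p = 0.290), and Grb2 fell by 0.75 without replicate 3 (limma adjusted p = 0.0417). With the high-GC term and all arrays, the difference of Grb2 was -0.22. Nck1 stood at -0.58 and Shc2 at 0.35. Of 6 measured kinases of the RAF, MEK, ERK and RSK tiers 4 were below 0, with a median of -0.06. The ERK substrate kinase Rps6ka3 had 6.51, 6.91 and 7.48 in Sos2KO and 7.86, 8.05 and 8.24 in WT, without overlap (-1.09, SE 0.28, limma adjusted p = 0.278). Braf stood at -0.47 and Map2k2 at 0.24.

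Transcripts that ERK signalling induces lay lower on 2 of the 3 Sos2KO arrays. Of 29 measured RAS-ERK targets, 21 had a difference below 0, the median was -0.16, and it turned to 0.10 with the high-GC term. The median difference from the WT mean was -0.33, -0.49 and 0.11 on Sos2KO replicates 1 to 3, against 0.01, -0.03 and -0.03 on the WT arrays. At an unadjusted p under 0.05, 1 target was lower and 0 were higher, beside 8.58% and 5.32% of all genes. That gene was Fos, the immediate early AP-1 component, with log2 levels of 6.37, 6.32 and 8.98 in Sos2KO and 8.24, 9.54 and 8.83 in WT. Replicates 1 and 2 lay below all WT arrays and replicate 3 among them (-1.65, SE 0.61, limma adjusted p = 0.309), and with the high-GC term the difference was 0.12. The immediate early gene Ier2 had the same order, with 7.50, 7.19 and 8.46 in Sos2KO and 8.34, 8.31 and 8.51 in WT. For the EGF family ligand Ereg, with 7.60, 6.38 and 8.76 in Sos2KO and 8.60, 8.18 and 8.72 in WT, replicate 3 was above all WT arrays. Spred1, a feedback inhibitor of RAS, stood at -0.44, or 0.08 with the high-GC term. The EGF receptor, Egfr, had 7.36, 8.14 and 8.84 in Sos2KO and 8.77, 9.21 and 8.95 in WT (-0.86), and the 17 receptor tyrosine kinases had a median of -0.21, or 0.18 with the high-GC term.

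Genes of cell division had lower values in the Sos2KO cultures, by modest amounts and without a member past the threshold. Of 23 G2/M and mitosis genes 23 had a difference below 0, with a median of -0.62, and 7 of them were lower at an unadjusted p under 0.05, beside 8.58% of all genes. Of 28 genes of DNA replication, 27 were below 0, with a median of -0.45, and 8 were lower at that p. The G2/M median lay at -0.76, -0.94 and -0.15 below the WT mean on Sos2KO replicates 1 to 3, against 0.08, -0.44 and 0.38 on the WT arrays, and the replication median at -0.51, -0.68 and -0.14, against 0.16, -0.26 and 0.10. In both lists WT replicate 2 was lower than Sos2KO replicate 3, so the groups overlap. The G2/M median was -0.13 with the high-GC term, -0.28 with the intron term and -1.24 with the spike-in term, and the replication median -0.10, -0.26 and -0.56 in the same order. The values with the high-GC term lay near those of replicate 3 (-0.15 and -0.14), on which that term leans. The spike-in term rests on the spike-in of 1 Sos1/2DKO and 1 Sos1KO array. Without Sos2KO replicate 3, 0 of the 23 and 3 of the 28 were called, beside 2.61% of all genes.

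Mki67, which encodes the proliferation antigen Ki-67, had log2 levels of 9.11, 8.55 and 10.18 in Sos2KO and 10.49, 10.06 and 10.92 in WT (-1.21, SE 0.47, limma adjusted p = 0.314). Cyclin A2, Ccna2, had 8.11, 7.84 and 8.87 in Sos2KO and 9.35, 8.87 and 9.69 in WT. Replicate 3 lay just inside the WT range for Mki67 and just below it for Ccna2. The spindle checkpoint kinase Bub1b stood at -0.94 and the chromosomal passenger protein Birc5 at -0.52. Of the replication genes, the origin recognition subunit Orc1 had 5.73, 5.63 and 5.73 in Sos2KO and 6.52, 6.02 and 6.68 in WT, separate on all arrays and alike in the 3 Sos2KO arrays (-0.71, SE 0.23, limma adjusted p = 0.292, and -0.67 with the high-GC term). The helicase subunits Gins1 (-1.27) and Cdc45 (-1.02) and Rrm2, of ribonucleotide reductase (-0.88), fell without replicate 3. The cell cycle inhibitor p27, Cdkn1b, was lower on all arrays (-0.67), the inhibitor locus Cdkn2a higher (0.55), and the G1 kinase Cdk6 lower (-0.75), none of them past the threshold.

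Promoters are shown because members of these lists lay on the same side of WT and share short motifs. They are taken from RefSeq on build GRCm38.p6 and running from 250 bases before the start to 50 after it. In the windows matched to G2/M genes, the CHR letters TTTGAA were found on either strand in 15 of 19 (78.9%), against 17.9% of 32851 promoters, and the letters CCAAT in 17 of 19 (89.5%), against 37.4%. In the replication windows an E2F match, TTTGGCG or TTTCGCG on either strand, was found in 10 of 27 (37.0%), against 2.37%. The lists were assembled from known cell cycle genes, so these shares describe the lists and say nothing of the Sos2 deletion. Capitals mark the matches to TTTGAA and CCAAT in Mki67, on the minus strand of chr7:135716330-135716629, and to CCAAT and the E2F letters in Orc1, on the plus strand of chr4:108579204-108579503. The Birc5 window held 0 matches to any of these motifs.
Mki67: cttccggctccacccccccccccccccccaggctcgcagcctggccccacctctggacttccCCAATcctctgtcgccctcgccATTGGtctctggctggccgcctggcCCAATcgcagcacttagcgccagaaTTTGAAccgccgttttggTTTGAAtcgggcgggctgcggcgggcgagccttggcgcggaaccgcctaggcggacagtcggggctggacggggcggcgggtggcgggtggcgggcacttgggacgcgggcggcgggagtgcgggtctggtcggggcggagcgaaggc
Orc1: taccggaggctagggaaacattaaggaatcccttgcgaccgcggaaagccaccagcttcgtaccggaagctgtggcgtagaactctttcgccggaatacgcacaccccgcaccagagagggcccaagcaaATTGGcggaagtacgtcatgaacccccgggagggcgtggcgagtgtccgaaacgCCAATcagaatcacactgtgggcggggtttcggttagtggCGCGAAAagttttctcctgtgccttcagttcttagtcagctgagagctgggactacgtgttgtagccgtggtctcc

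Interferon-stimulated genes were the list with the highest median, at 0.54 over 24 members, with 4 below 0 and 6 higher at an unadjusted p under 0.05, beside 5.32% of all genes. On Sos2KO replicates 1 to 3 the median difference from the WT mean was -0.14, 0.57 and 0.82, against 0.21, -0.01 and -0.25 in WT, so replicate 1 fell within the WT range. Irf7, a transcription factor of the interferon response, had log2 levels of 4.92, 7.19 and 7.55 in Sos2KO and 5.36, 4.96 and 4.91 in WT. Oasl2 had 5.95, 7.60 and 8.16 in Sos2KO and 6.33, 5.79 and 5.36 in WT, and Usp18, a negative regulator of interferon signalling, 5.66, 6.99 and 7.81 in Sos2KO and 5.91, 5.53 and 5.11 in WT. All 3 were high in 2 of 3 Sos2KO cultures and at the WT level in the other (log2 differences 1.47, 1.41 and 1.31, limma adjusted p = 0.306 for Irf7 and 0.282 for the others). Oas1a alone among the named members was higher on every array, at 5.30, 5.55 and 5.78 in Sos2KO and 4.84, 4.32 and 4.80 in WT. The median was 0.94 with the high-GC term and 0.30 without Sos2KO replicate 3, and 12 of the 24 members were near background.

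The core of the interferon response element, searched as GAAA, 2 free bases and GAAA on both strands, was present in 11 of 23 windows matched to the interferon list (47.8%), against 3.44% of all promoters. Oas1a is shown as the member that was separate on all arrays, on the minus strand of chr5:120907476-120907775, with 2 overlapping matches in capitals. The windows of Oasl2 and Irf7 held 0 matches. A match is a description of letters, not of binding.
Oas1a: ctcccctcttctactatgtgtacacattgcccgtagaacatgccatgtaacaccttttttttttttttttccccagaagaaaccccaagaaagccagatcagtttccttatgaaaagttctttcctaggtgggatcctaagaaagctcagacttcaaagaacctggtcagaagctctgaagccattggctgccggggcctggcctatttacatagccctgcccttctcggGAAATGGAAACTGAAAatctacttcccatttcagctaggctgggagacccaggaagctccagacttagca

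Genes of adhesion and of growth factor signalling were followed next. Of 15 integrins, 12 were below 0 (median -0.36, or 0.22 with the high-GC term). The beta-1 chain Itgb1, shared by many matrix receptors, had log2 levels of 11.88, 11.27 and 12.40 in Sos2KO and 12.56, 12.64 and 12.59 in WT, lower on each array, and fell by 1.02 without replicate 3 (limma adjusted p = 0.0372). Itgav fell by 1.01 on the same arrays, while the leukocyte integrin chain Itgb7 rose by 1.02. Of 19 genes of TGF-beta and BMP signalling, 15 were below 0 (median -0.33, or 0.06 with the high-GC term) and 6 were lower at an unadjusted p under 0.05, beside 8.58% of all genes. Id2, a BMP-induced inhibitor of differentiation, had 8.73, 7.51 and 8.97 in Sos2KO and 9.43, 9.48 and 10.25 in WT, without overlap (-1.32, SE 0.41, limma adjusted p = 0.282). The receptor Tgfbr1 (-1.33) and the ligand Tgfb2 (-1.57) fell without replicate 3, and Id1 stood at -0.88 over all arrays.

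Of 19 WNT ligands and modulators, 10 were below 0 (median -0.05, or 0.04 with the high-GC term). Sfrp1, a secreted inhibitor of WNT, had log2 levels of 6.48, 7.48 and 9.52 in Sos2KO and 9.01, 9.87 and 10.61 in WT. Replicate 3 lay within the WT range (limma adjusted p = 0.295), and Sfrp1 fell by 2.85 with that replicate left out (limma adjusted p = 0.0335). The WNT agonist Rspo3 had 6.85, 6.77 and 8.52 in Sos2KO and 7.64, 9.63 and 9.42 in WT, and the WNT inhibitor Wif1 was higher on all arrays (0.52). The mannose 6-phosphate receptor Igf2r stood at -0.63 in a list of 10 IGF genes whose median was -0.44, or 0.01 with the high-GC term. Of 20 matrix glycoprotein, proteoglycan and elastic fibre genes, 18 were below 0 (median -0.21, or 0.18 with the high-GC term), with Vcan (-1.04) and Sparc (-0.42) lower on all arrays. Of 15 collagens 8 were below 0 (median -0.04, or 0.36), and of 16 matrix proteases and inhibitors 10 were (median -0.04, or 0.42). Of 20 HOX genes 13 were below 0 (median -0.08, -0.02 with the high-GC term and 0.47 with the spike-in term). At an unadjusted p under 0.05, 1 was lower and 1 higher, beside 8.58% and 5.32% of all genes. The member of smallest p, the positional homeobox gene Hoxa5, had 7.23, 7.22 and 7.13 in Sos2KO and 7.58, 8.87 and 8.63 in WT. It was alike in the 3 Sos2KO arrays (-1.17, SE 0.35, limma adjusted p = 0.282, and -1.34 with the high-GC term).

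Of 21 acute-phase and chemokine genes, 12 were below 0 (median -0.08, or -0.14 with the high-GC term). Nfkbia, the NF-kappaB inhibitor that NF-kappaB itself induces, had log2 levels of 6.95, 7.09 and 7.50 in Sos2KO and 7.97, 8.36 and 7.88 in WT, lower on each array (-0.89, SE 0.22, limma adjusted p = 0.278). Tnfaip3 was at -0.94, or 0.16 with the high-GC term, and the cytokine Il6 at -1.27, with replicate 3 inside the WT range for both. The angiogenic factor Vegfa had 7.77, 7.51 and 8.97 in Sos2KO and 8.94, 8.99 and 9.04 in WT, and fell by 1.35 without replicate 3 (limma adjusted p = 0.0242). Of 15 cholesterol and fatty acid synthesis genes, 12 were above 0 (median 0.27, or -0.07 with the high-GC term), and the enzymes Lss and Fasn stood at 0.69 and 0.46. Cytosolic ribosomal proteins (median 0.11, or -0.11 with the high-GC term), ribosome biogenesis (-0.03, or 0.11) and oxidative phosphorylation (-0.07, or -0.15) were close to 0. The respiratory subunit Cox4i1 was higher on all arrays, at 0.57.

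**Figure D4:**
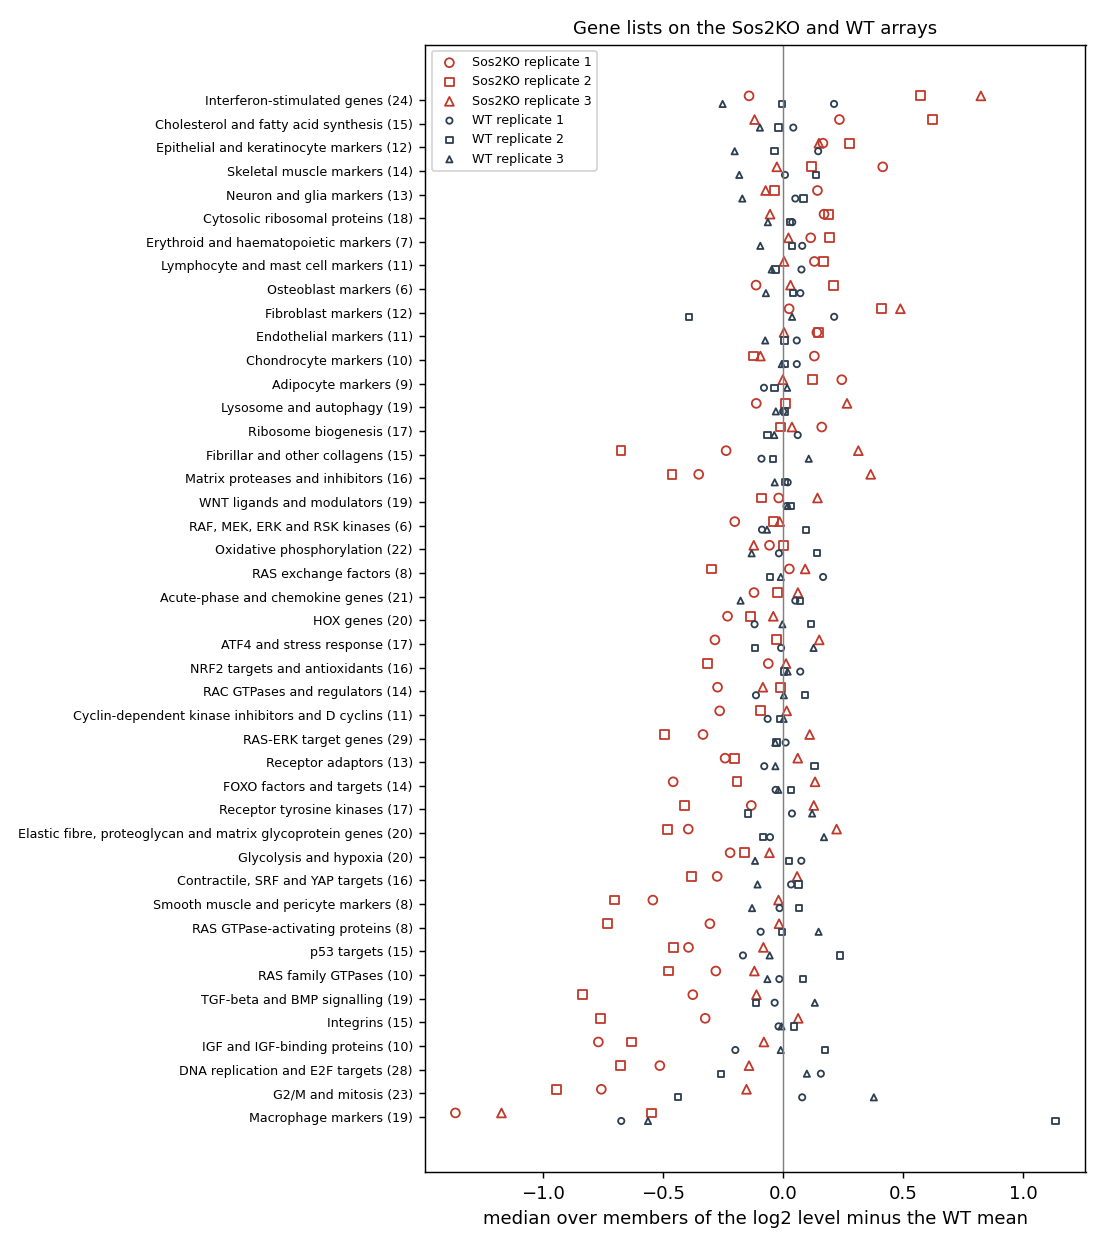
Median over the members of each gene list of the log2 level minus the WT mean, on the Sos2KO arrays (red, upper of each pair) and the WT arrays (dark, lower), with the number of measured members in brackets and lists ordered by their median difference. Sos2KO replicates 1 and 2 lie left of 0 for many lists, such as G2/M (-0.76 and -0.94), while replicate 3 lies nearer to 0 (-0.15). The WT mean includes each WT array, which draws the dark points toward 0.

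Markers of other cell types were followed because primary cultures can hold them. Of 19 macrophage markers, 19 had a difference below 0, with a median of -1.02, and 9 were lower at an unadjusted p under 0.05, beside 8.58% of all genes. Their mean log2 level was 5.16, 5.92 and 5.44 in Sos2KO replicates 1 to 3 and 5.84, 7.61 and 5.94 in WT, so WT replicate 2 stood alone and the other arrays overlapped. The median was -0.45 without WT replicate 2, -1.15 with the high-GC term and -0.25 with the spike-in term. The macrophage marker Cd14 had levels of 6.02, 6.39 and 6.42 in Sos2KO and 6.78, 8.31 and 6.74 in WT, Cx3cr1 stood at -1.15, Adgre1, an adhesion receptor of macrophages, at -1.14, and the leukocyte antigen Ptprc at -0.77, and 8 of the 19 were near background. In bulk cultures fewer cells of a type and less RNA per cell cannot be told apart. Of 12 fibroblast markers 5 were below 0 (median 0.07, or 0.86 with the high-GC term), with Thy1 at 11.20, 11.67 and 11.69 in Sos2KO and 11.61, 10.42 and 10.95 in WT, and S100a4 at 1.16. Endothelial, epithelial, muscle, cartilage, bone, fat, neural, erythroid and lymphoid lists had medians between 0.04 and 0.22, with many members near background, and smooth muscle and pericyte markers a median of -0.29.

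Between Sos2KO and Sos1KO, which share no arrays but belong to the same fit, 836 genes were called (4.29%), 290 higher in Sos2KO (1.49%) and 546 lower (2.8%). These groups also differed in control probe sets. High-GC background had a mean of 8.19 in Sos2KO and 7.44 in Sos1KO, BioB 9.66 and 8.78, and Dap 7.48 and 5.82. The spike-in was present on all Sos2KO arrays and on 1 Sos1KO array. The part of background and labelling in the differences below was not tested. Sos1 itself was higher, with log2 levels of 8.77, 8.78 and 9.38 in Sos2KO and 7.31, 7.13 and 7.37 in Sos1KO (1.70, limma adjusted p = 0.0097), and Sos2 was lower (-1.15, limma adjusted p = 0.0157). The cytoskeletal LIM protein Fhl3 had 10.25, 10.45 and 10.27 in Sos2KO and 9.14, 8.71 and 8.70 in Sos1KO. Keratin 19, Krt19 (1.87), the actin-binding Tagln2 (1.42), the linker histone H1f1 (1.34), the RNA helicase Ddx39a (1.32), the cell cycle factor Mybl2 (1.52) and the methylation cycle enzyme Ahcy (1.13) were higher as well.

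In the lower direction Klhl13, a ubiquitin ligase adaptor, had log2 levels of 8.23, 8.22 and 8.12 in Sos2KO and 10.05, 10.57 and 10.15 in Sos1KO (-2.07, limma adjusted p = 0.0042). The protein kinase A inhibitor Pkia (-2.21), the natriuretic peptide receptor Npr3 (-2.58), the secreted glycoprotein Nell2 (-2.35), Smpdl3a (-1.54), Tm2d1 (-1.46), the lysosomal GTPase Rragd (-1.33) and Dcaf12l1 (-1.17) were lower too. Against WT, the Sos2KO differences of Klhl13, Smpdl3a and Pkia were -0.31, -0.27 and -0.63.

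Cell division genes lay above Sos1KO in Sos2KO, in the main fit without a term for background or spike-in. The median difference was 0.79 for DNA replication, with 8 of 28 members called higher, and 0.80 for G2/M, with 2 of 23 called, beside 1.49% of all genes. Rrm2 had log2 levels of 9.28, 9.03 and 9.80 in Sos2KO and 7.83, 8.36 and 8.29 in Sos1KO (1.21, limma adjusted p = 0.0194). The helicase subunit Mcm6 (1.55) and, in mitosis, Aurka (1.40) and Cdc20 (1.68), all 3 named after their values were seen, were called. Ribosome biogenesis had a median of 0.70 with 8 of 17 called higher, including the rRNA methyltransferase Nop2 (1.04). Of 29 RAS-ERK targets, Etv4 (1.29) and Fosl1 (1.32), named likewise, were higher and Fos was lower (-2.61), with Fos at 9.74, 10.02 and 9.76 in Sos1KO. Of 19 genes of TGF-beta and BMP signalling, 4 were called lower, beside 2.8% of all genes, and 1 higher. The lower ones were Bmp4 (-2.62), Tgfb2 (-2.28), Id2 (-1.75) and Id1 (-1.39), and the higher one was the ligand Tgfb1 (1.09), with Bmp4 and Tgfb1 named after their values were seen.

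The number of genes called between Sos2KO and Sos1KO rested on single arrays. Leaving out Sos2KO replicate 3 raised it to 1870, while it dropped to 18 when Sos2KO replicate 1 was omitted and to 12 when replicate 2 was. Omitting Sos1KO replicate 2 left 3 genes, and omitting Sos1KO replicate 3 left 24. With the high-GC term it was 1, and with the spike-in term 12.

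**Figure D5:**
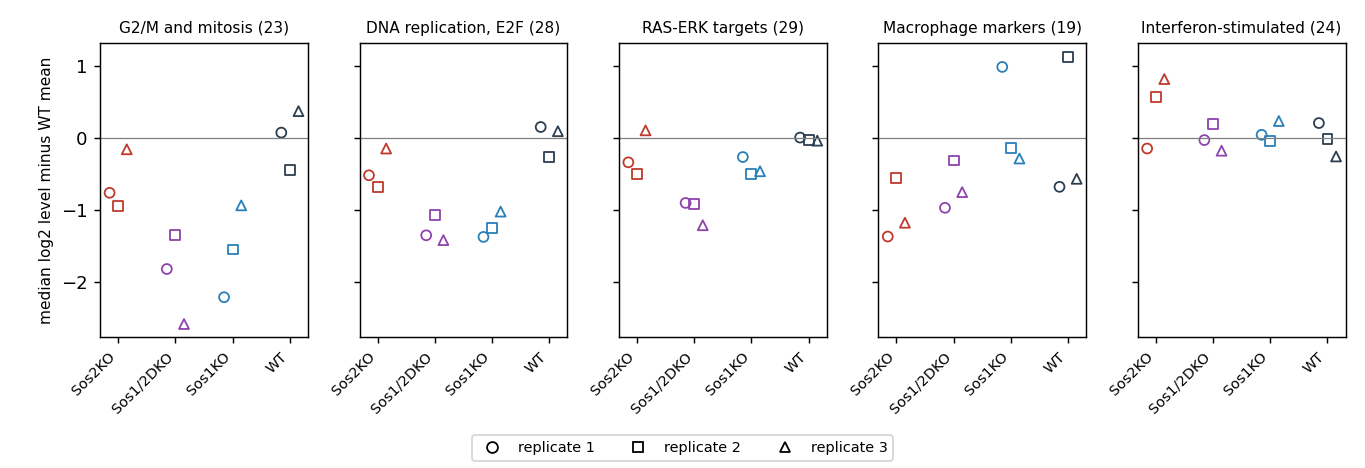
Median log2 level minus the WT mean for 5 gene lists on all 12 arrays, with a column for each genotype and a marker shape for each replicate. For replication genes all 3 Sos2KO arrays (-0.51, -0.68 and -0.14) lie above all Sos1KO arrays, and for macrophage markers WT replicate 2 is the highest array, at 1.13.

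The Sos2 deletion was also measured on a Sos1-deleted background, from 6 arrays that enter the comparison with WT only through the shared estimate of spread. Between Sos1/2DKO and Sos1KO 1 gene was called (0.00513%), Sfrp2, at 3.25 (limma adjusted p = 0.0214). No gene was called with all probe sets, array weights, the 2 groups alone, the high-GC or the sex term, or without Sos1KO replicate 1 or 3. The difference of Sfrp2 between Sos2KO and WT was -0.20, and between Sos1/2DKO and Sos1KO 1404 genes had an unadjusted p under 0.05 (7.2%). Over all genes the sign was shared with Sos2KO minus WT for 63.4%. High-GC background was also somewhat higher in Sos1/2DKO (mean 7.64, from 7.41 to 7.92) than in Sos1KO (mean 7.44, from 7.28 to 7.65). The spike-in was present on 1 array of each of these genotypes. The part of background in the shared signs was not tested. Of the 12 genes of smallest p that were higher in Sos2KO, 10 were also above 0 on the Sos1-deleted background, with a median of 0.21, and of the 12 lower genes 9 were below 0, with a median of -0.25. Sos2, deleted in Sos1/2DKO too, is among the 12, and 8 of the other 11 were below 0. Sos2 differed by -1.02 and Pdpn by 0.83. Of the genes in the authors' list, Snapc1 (-1.16), Pgap1 (-0.55) and Mettl9 (-0.07) were below 0 here too, Mettl9 by little, whereas Zbed4 stood at 0.16 and Mrpl20 at 0.17. Whether the deletion acts differently on the 2 backgrounds was tested as an interaction, and limma called 0 genes (0.0%), with 962 at an unadjusted p under 0.05 (4.93%).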

How the data were processed

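RNA of 12 fibroblast cultures was measured on Affymetrix arrays. The authors deposited log2 levels, made with RMA in R 3.6.3 per the submitters' processing notes, for 29129 probe sets, and tables that hold, per the file headers, log2 fold changes, each p-value before and after adjustment, and limma scores. The genome build behind them is not given in the sources used here. Of the probe sets, 19572 had 1 symbol, 0 several and 9557 none. For 55 genes with several, the brightest was kept, leaving 19505 genes. Groups came from sample titles. The fit used limma (version 3.58.1, R 4.3.3), with 1 mean per group over all 12 arrays and 8 residual degrees of freedom, two-sided, with Benjamini-Hochberg adjustment over 19505 genes and calls under 0.05. RMA gives no detection call. A gene was taken as near background in a group where at least 1 array of that group did not exceed the 75th percentile of the intron controls. Members of a list were counted as near background only where this held in both Sos2KO and WT. Precision is limited by the number of arrays.

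The comparison, its 44 gene lists (667 of 737 members measured) and the naming rules were chosen with earlier results of these data known. Named genes were Sos1 and Sos2, the 12 higher and 12 lower genes of smallest p whose arrays did not overlap and whose higher group was above background, the 8 and 8 largest changes among genes called without Sos2KO replicate 3, up to 4 members per list by p, up to 6 per direction of the authors' table, and up to 8 per direction of the called genes against Sos1KO. Apart from the list members, predicted and clone-named genes, receptor and immunoglobulin segment families, small RNAs, Y-linked genes and Xist were left out. The lists got no set test. The labels state no pairing of cultures, and the main fit used none. A block for the replicate number was tried as another setting. Deviations of same-numbered Sos2KO and WT arrays correlated at 0.111, 0.108 and 0.305, and those of differently numbered ones at -0.19 to 0.077. Yet Sos1/2DKO replicate 2 and Sos2KO replicate 3 reached 0.37, and replicate 3 of Sos1/2DKO and of Sos1KO stood at -0.35. A pairing is thus not established. On simulated data of 19505 genes for Sos2KO minus WT, limma recovered 65 of 100 genes set to differ by 1 on the log2 scale and 96 of 100 set to differ by 2, with 8 false calls. The simulated noise was independent between genes, with 1 spread per gene for all groups. In the real arrays the median SD over genes was 0.24 in Sos2KO and 0.15 in WT, so the recovery on them may be lower. Terms for high-GC background (the mean of 8 control sets), intron controls, spike-in batch and embryo sex, and quantile scaling over genes alone, were added after seeing the data.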

Additional observations from a re-analysis of the deposited data

Results flagged for a closer look

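Control RNAs outside the gene comparison differed between the groups on every array. The poly-A control Dap was 3.54 log2 units higher in the Sos2KO mean than in the WT mean, and Phe, a second such control, was 1.53 higher. The hybridization control BioB was 0.95 higher and the high-GC background controls 0.79 higher. Their part in the gene differences was not tested beyond the terms in the fit.

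Nell2 moved in opposite directions after Sos2 deletion on the 2 backgrounds. Its log2 levels were 6.39, 6.27 and 6.21 in Sos2KO and 6.54, 7.76 and 7.35 in WT, and 10.13, 10.62 and 10.51 in Sos1/2DKO against 8.18, 9.41 and 8.32 in Sos1KO. The interaction was 2.71 (SE 0.47), which did not pass over all genes (limma adjusted p = 0.65).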

How the results depend on the processing

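Of 101 named gene differences between Sos2KO and WT, 53 passed the threshold without Sos2KO replicate 3, beside 3.69% of all genes. Under every other setting tried, 0 passed. Most of these genes were named for a small p in the same data, and some for being called without replicate 3. The naming rule thus raised the count of 53. With the replicate block, 0 genes were called between Sos2KO and WT and no call of that comparison changed, whereas the interaction then had 1. Leaving out single arrays gave 0 to 720 calls between Sos2KO and WT, 0 to 5453 at the wider cutoff, 3 to 1870 between Sos2KO and Sos1KO, 0 to 10 between Sos1/2DKO and Sos1KO and 0 to 1 for the interaction, and Sos2 ranged from -1.25 to -0.96. With the spike-in term 1 gene was called between Sos2KO and WT, at either cutoff, 12 between Sos2KO and Sos1KO and 1 for the interaction. At the wider cutoff a trended robust prior gave 12 and array weights 5373. Between Sos2KO and Sos1KO all probe sets gave 522, array weights 2540, the high-GC term 1, the intron term 15 and the sex term 300. Between Sos1/2DKO and Sos1KO all probe sets, array weights, the groups alone, the high-GC term and the sex term gave 0. Sos1 between Sos2KO and WT turned to 0.0091 with cyclic loess, 0.49 with the high-GC term, 0.18 with the intron term, 0.057 with the spike-in term and 0.049 with quantile scaling, and ranged from -0.31 to 0.011 over the omitted arrays. The high-GC term turned Cfap100 to -0.017, Nf1 to 0.066, Fos to 0.12, Ereg to 0.23, Spred1 to 0.078 and Tnfaip3 to 0.16. The interaction of Sos2 turned to -0.12 with the high-GC term, -0.076 with the intron term, and ranged from -0.061 to 0.23 over omitted arrays. On the Sos1-deleted background Mettl9 turned to 0.021 with cyclic loess and 0.0034 with the high-GC term (-0.13 to 0.013 over omitted arrays), and Mrpl20 to -0.016 with array weights (-0.022 to 0.41). The causes were not tested. With 3 arrays a group, a missed threshold does not show that a gene did not differ.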

Other observations

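Further gene lists had medians of at most 0.30 in size between Sos2KO and WT, with 0 members called. Of 16 contractile, SRF and YAP target genes, 15 were below 0 (median -0.22, or -0.09 with the high-GC term), and 0 of them had an unadjusted p under 0.05 in limma. Of 20 glycolysis and hypoxia genes 15 were below 0 (median -0.22, -0.14 with the high-GC term and -0.57 with the spike-in term) and 3 were lower at that p, beside 8.58% of all genes. Of 15 p53 targets 10 were below 0 with 1 lower at that p, and the median was -0.30, -0.03 with the high-GC term and 0.19 with the spike-in term. FOXO factors and targets had a median of -0.19, or 0.11 with the high-GC term, and RAC GTPases and their regulators one of -0.14, or -0.11. Lysosome and autophagy genes had a median of 0.02, or 0.14.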
